A study of Homo sapiens with 9 samples.

Results

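The genes described here are 10 regulators of fetal haemoglobin: BCL11A, ZBTB7A, MYB, NR2C1, NR2C2, DNMT1, MBD2, CHD4, IGF2BP1 and LIN28B. They were chosen by name, and their rows were read from a count table of 58347 Ensembl genes in 9 RNA-seq libraries of the erythroleukaemia line K562, human cells that make embryonic and fetal globins. BCL11A had no reads in any library, and the other 9 genes had enough reads to be tested.

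All cells carried the FIRE-dCas9 recruitment system, delivered as stably expressed transgenes. Its parts are dCas9 with blasticidin resistance, MS2-Fkbp(1x) with hygromycin resistance and SS18-Frb with puromycin resistance, and the EF1a promoter drives each protein. SS18 is a subunit of the BAF chromatin remodelling complex, and rapamycin links Fkbp to Frb, so that the fusion gathers where the guide RNA holds dCas9. The study asked whether BAF brought to the HBG1 promoter activates that fetal globin gene. With a guide to the HBG1 promoter there were 3 libraries from cells given DMSO and 3 from cells given 10 nM rapamycin for 24 h. With a non-targeting guide there were 1 DMSO library (replicate 2) and 2 rapamycin libraries (replicates 1 and 2), so every group carried the same transgenes and differed by guide and drug. Rapamycin also inhibits the kinase complex mTORC1 with either guide. Whether the line is a clone or a pool is not given in the sources used here.

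In adult red cells the gamma-globin genes HBG1 and HBG2 are held silent by several layers of repressors. BCL11A and ZBTB7A (also called LRF) bind the gamma-globin promoters and bring in the NuRD complex. Its remodelling ATPase is CHD4, and its reader of methylated CpG is MBD2. The orphan nuclear receptors NR2C1 (TR2) and NR2C2 (TR4) bind direct repeats in the same promoters with DNMT1, the maintenance DNA methyltransferase. MYB keeps erythroid progenitors in an immature, dividing state and favours the adult programme. LIN28B and IGF2BP1 act in the opposite direction: they are RNA-binding proteins of fetal cells that lower BCL11A, and LIN28B also blocks maturation of the let-7 microRNAs.

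The let-7 microRNAs in turn pair with the messages of LIN28B and IGF2BP1, and the sequences are shown because this pairing is what ties the fetal genes together. In RefSeq (GRCh38.p14), 9 of 9 mature let-7 family members examined shared the same seed, bases 2 to 8, which is in capitals in these 4:
hsa-let-7a-5p: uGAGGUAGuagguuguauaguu
hsa-let-7b-5p: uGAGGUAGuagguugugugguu
hsa-let-7g-5p: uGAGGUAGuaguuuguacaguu
hsa-miR-98-5p: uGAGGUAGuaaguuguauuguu

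The site that pairs with this seed is CTACCTC, searched on the transcript strand of each gene's principal 3′ untranslated region (GENCODE 29, GRCh38). LIN28B held 4 sites, IGF2BP1 held 4, MBD2 held 3 and CHD4 held 1, and 6 of the 10 genes held none (BCL11A, ZBTB7A, MYB, NR2C1, NR2C2 and DNMT1). Of all 19045 protein-coding genes with such a region, 8.58% held at least 1 site and 0.163% held 3 or more. Among regions of 4000 to 8000 bases, as in LIN28B (4549 bases) and IGF2BP1 (6206 bases), 27.5% held at least 1 and 0.77% held 3 or more. Of the 12 sites, 6 were followed by an A, the base that commonly extends a seed match. Those 6 and the CHD4 site are given 5′ to 3′ with the seed match in capitals:
LIN28B site 1: gttgcaaagtCTACCTCatgcaagtat
LIN28B site 3: cagcaaaaggCTACCTCatagttgata
IGF2BP1 site 1: gcgaagtaaaCTACCTCaaggtatgaa
IGF2BP1 site 2: gtgctagtaaCTACCTCacagagcccc
IGF2BP1 site 3: aatggattaaCTACCTCaatccttaca
MBD2 site 2: ataataatacCTACCTCatagagttgt
CHD4 site 1: cgagacacagCTACCTCtgttggcatc

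The capitals lie at chr6:105078827-105078833 and chr6:105081436-105081442 for LIN28B (plus strand), and at chr17:49051076-49051082, chr17:49053713-49053719 and chr17:49054367-49054373 for IGF2BP1 (plus strand). They lie at chr18:54152821-54152827 for MBD2 and chr12:6570240-6570246 for CHD4, both on the minus strand. A match describes the letters only, and let-7 itself was not measured in these libraries, which hold RNA selected by its poly-A tail.

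The libraries held 19797409 to 31619671 counts each. All 8 erythroid markers examined were above 10 CPM (counts scaled to library size) in every library, while of 10 markers of other blood lineages 1 was above 10 CPM in all, 5 were below 1 CPM in all and PF4 had no reads. With the HBG1 guide, rapamycin moved some of these markers. ALAS2, which starts haem synthesis, rose by 0.67 on the log2 scale (adjusted p = 0.013), GATA1 rose by 0.31 (adjusted p = 0.033) and TFRC, the transferrin receptor, fell by 0.28 (adjusted p = 0.018). The ALAS2 call was lost without DMSO replicate 2 (0.57, adjusted p = 0.076) or 3 (0.61, adjusted p = 0.069), and the TFRC call without DMSO replicate 2 (-0.27, adjusted p = 0.089) or 3 (-0.29, adjusted p = 0.058) or rapamycin replicate 3 (-0.28, adjusted p = 0.074). With the replicate number as a block, which compares rapamycin with DMSO within same-numbered libraries, the embryonic globin HBZ rose too (0.27, adjusted p = 0.0029), as did ITGA2B, a megakaryocyte marker (0.36, adjusted p = 0.0052). The 8 erythroid markers summed to 9818 to 16590 CPM under DMSO and 10750 to 19660 CPM under rapamycin with the HBG1 guide, and the 10 others to 41.7 to 55.07 and 51.92 to 72.02 CPM. With the non-targeting guide the 8 summed to 5181 CPM under DMSO and 5828 to 7052 CPM under rapamycin. These sums are weighted to the embryonic globin HBE1, which gave 12320 of the 16590 CPM in HBG1-guide DMSO replicate 1 and 2030 CPM in the non-targeting DMSO library. The part of the markers in the changes of the regulators was not tested. The summed level of HBG1 and HBG2, near-identical copies, was 726 ± 313 CPM (SD, n = 3) with the HBG1 guide and DMSO, 4656 ± 1064 CPM (SD, n = 3) with that guide and rapamycin, 19460 CPM in the non-targeting DMSO library and 20870 ± 196 CPM (SD, n = 2) in the non-targeting rapamycin libraries. Every library with the HBG1 guide was below every library with the non-targeting guide.

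BCL11A (ENSG00000119866, chr2:60450520-60555154, GRCh38, GENCODE 29) is the main repressor of gamma-globin in adult erythroid cells. It had 0 reads in 9 of 9 libraries, and a count of 0 allows up to 3 reads, or 0.0972 to 0.155 CPM in a single library and 0.0135 CPM over all 221856483 reads. These limits cover counting error only. Of 19817 protein-coding genes in the table, 2279 (11.5%) likewise had no reads in any library, BCL11B, its paralogue, among them. No fold change can be given for BCL11A in any comparison, and none of the groups had detectable message at this depth.

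To compare genes with each other, CPM was divided by the length of each gene's merged exons in kilobases. CHD4 was the most abundant at 38.95 ± 4.11 CPM per kb (SD, n = 9 libraries), followed by DNMT1 (29.16 ± 2.53), MYB (28.17 ± 2.59) and IGF2BP1 (25.43 ± 3.30). A middle group held NR2C2 (13.51 ± 1.17), ZBTB7A (12.47 ± 1.45) and LIN28B (11.45 ± 1.48). MBD2 (4.78 ± 0.59) and NR2C1 (3.75 ± 0.41) were the least abundant of the genes with reads. The ranges over 9 libraries separated IGF2BP1 from NR2C2, LIN28B from MBD2 and NR2C1 from BCL11A, and every other pair of neighbours overlapped. With the length of the principal transcript in place of merged exons, a choice made after seeing the data, NR2C2 moved from rank 5 to rank 2 (64.0 CPM per kb) and NR2C1 (5.91) passed MBD2 (5.36).

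Within families, the same scale showed which paralogue was the more abundant message. NR2C2 stood 3.62 ± 0.277 times above NR2C1 per kb (SD, n = 9), CHD4 9.46 ± 1.05 times above CHD3, and IGF2BP1 2.72 ± 0.212 times above IGF2BP2 and 2.41 ± 0.234 times above IGF2BP3. For MBD2 and its NuRD paralogue MBD3 the order was the other way, with MBD3 at 4.41 ± 0.41 times MBD2. DNMT1 was close to the de novo methyltransferase DNMT3B, with a ratio of 1.18 ± 0.123, and 52.9 ± 14.8 times above DNMT3A. In 9 of 9 libraries each of these ratios lay on the same side of 1, the lowest being 1.05 for DNMT1 to DNMT3B. With the length of the principal transcript each order held, but several ratios moved: NR2C2 to NR2C1 became 10.9, MBD3 to MBD2 12.7, DNMT1 to DNMT3B 2.0 and IGF2BP1 to IGF2BP3 1.32.

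**Figure D1:**
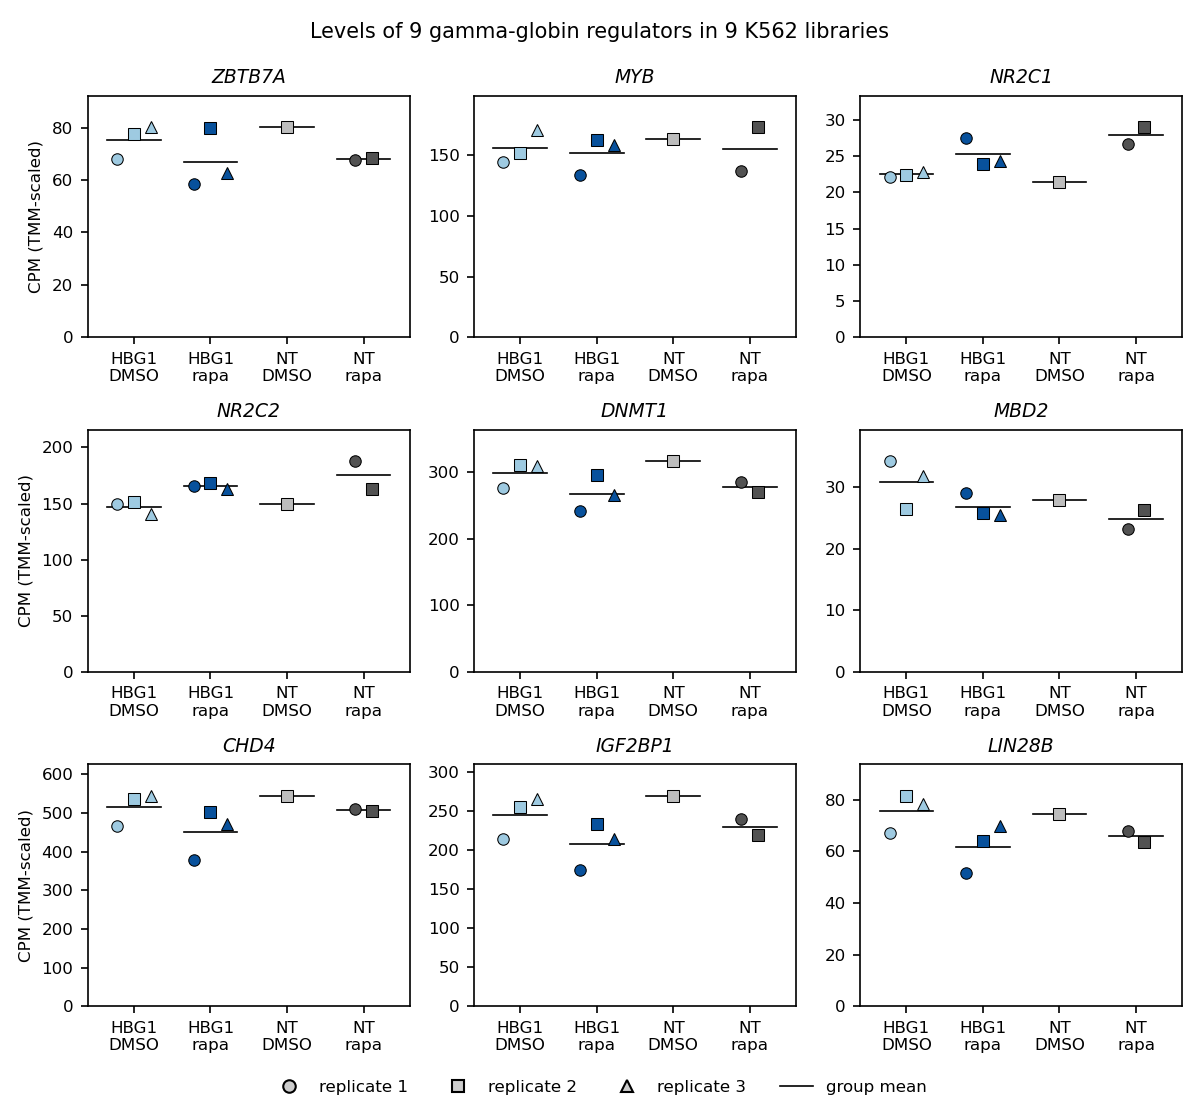
TMM-scaled CPM of the 9 genes with reads, by guide and treatment (rapa: rapamycin; NT: non-targeting guide), with 1 point per library, shape for the replicate number and a line at the group mean; each axis starts at 0. NR2C1 and NR2C2 are higher in every HBG1-guide rapamycin library than in every HBG1-guide DMSO library, and replicate 1 is the lowest HBG1-guide rapamycin library for 6 of the 9 genes.

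Rapamycin against DMSO with the HBG1 guide compares cells in which the SS18 fusion is and is not held at the HBG1 promoter, and also cells with and without mTORC1 inhibition, and these cannot be told apart within this guide. The fetal RNA-binding proteins LIN28B and IGF2BP1 stood 18.1% and 15.4% lower under rapamycin, and CHD4 12.4% lower, while the nuclear receptors NR2C1 and NR2C2 stood 12.2% and 12.3% higher. None of the 9 genes passed the unpaired test at an adjusted p of 0.05 (0 of 9, against 6.8% of 23675 genes tested, 4.05% lower and 2.75% higher, and 15.2% of the 7604 genes at least as abundant as the least abundant of the 9). At an unadjusted p under 0.05 there were 3 of 9 (LIN28B, IGF2BP1 and NR2C2), against 20.8% of all genes, and DESeq2 called 0 of 9. Replicate numbers were taken to pair the HBG1-guide libraries, although the correlations set only replicate 1 apart. Replicates 2 and 3 correlated by number (r = 0.275 and 0.230) little more than when crossed (0.255 and 0.19). With the replicate as a block 4 of 9 passed: LIN28B, IGF2BP1 and CHD4 fell and NR2C2 rose. That fit called 17.1% of 20179 genes, 9.62% lower and 7.43% higher, and 31.1% of the 7604 abundant genes.

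**Figure D2:**
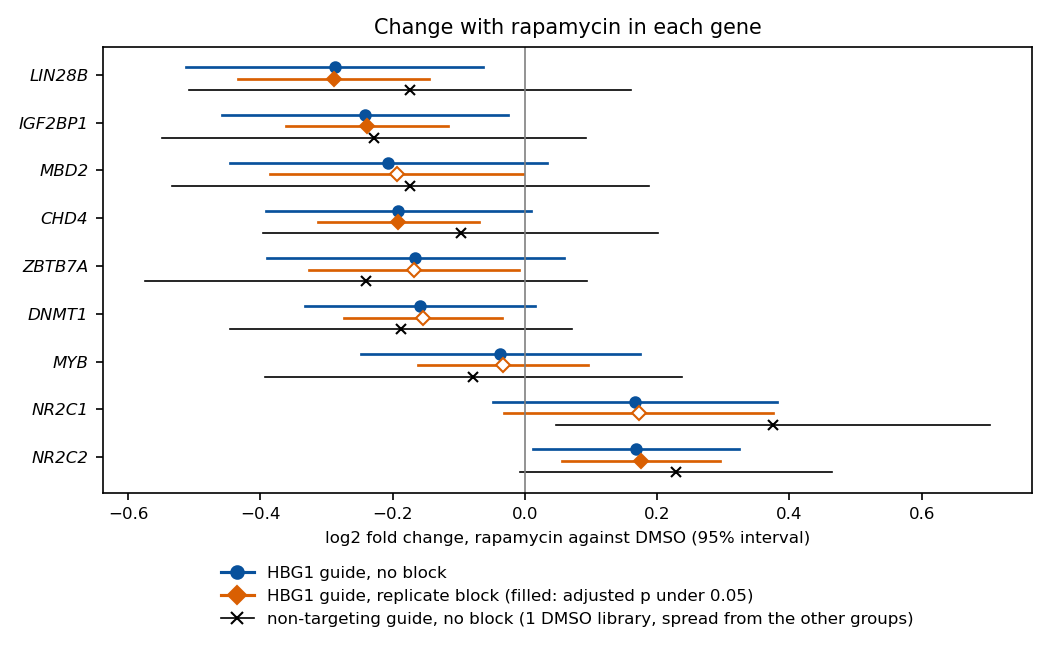
Log2 fold change of each gene with rapamycin against DMSO: the unpaired fit and the fit with a replicate block, both for the HBG1 guide, and the non-targeting guide, whose 1 DMSO library takes its spread from the other groups, all with 95% intervals. The unpaired values run from -0.29 (LIN28B) to 0.17 (NR2C2), and the 4 filled diamonds are LIN28B, IGF2BP1, CHD4 and NR2C2.

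LIN28B (ENSG00000187772, chr6:104936616-105083332), the fetal inhibitor of let-7 maturation, had the lowest change of the 9. With the HBG1 guide it stood at 67.1, 81.5 and 78.3 CPM in DMSO replicates 1, 2 and 3 and at 51.7, 63.9 and 69.8 CPM in rapamycin replicates 1, 2 and 3. With the non-targeting guide it stood at 74.4 CPM in the DMSO library and at 68.0 and 63.8 CPM in rapamycin replicates 1 and 2. Rapamycin was lower than DMSO in each same-numbered pair, but the groups overlapped because DMSO replicate 1 lay below rapamycin replicate 3. The log2 fold change was -0.29 (SE 0.11, 95% interval -0.51 to -0.06, adjusted p = 0.12), and with the replicate block -0.29 (SE 0.07, adjusted p = 0.0067). The blocked call held when any 1 pair was left out, with adjusted p from 0.013 to 0.045. Without the HBG1-guide rapamycin replicate 1, the unpaired value was -0.18.

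IGF2BP1 (ENSG00000159217, chr17:48997412-49055650) binds and stabilises messages in fetal cells. With the HBG1 guide its level was 214, 256 and 266 CPM in DMSO replicates 1, 2 and 3 and 175, 233 and 214 CPM in rapamycin replicates 1, 2 and 3. With the non-targeting guide it was 269 CPM under DMSO and 240 and 219 CPM under rapamycin. With the HBG1 guide replicate 1 gave the lowest level under each treatment, and the groups overlapped. The log2 fold change was -0.24 (SE 0.10, adjusted p = 0.18), and with the replicate block -0.24 (SE 0.06, adjusted p = 0.0079). That call was lost without pair 3 (-0.21, adjusted p = 0.10), and without rapamycin replicate 1 the unpaired value was -0.13.

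CHD4 (ENSG00000111642, chr12:6570082-6614524), the ATPase of NuRD, stood at 466, 535 and 545 CPM in HBG1-guide DMSO replicates 1, 2 and 3 and at 378, 502 and 473 CPM in rapamycin replicates 1, 2 and 3. With the non-targeting guide it stood at 543 CPM under DMSO and at 509 and 506 CPM under rapamycin. The HBG1-guide groups overlapped, and rapamycin replicate 1 was the lowest of the 9 libraries. The log2 fold change was -0.19 (SE 0.09, adjusted p = 0.26), and with the replicate block -0.19 (SE 0.06, adjusted p = 0.028). The blocked call was lost without pair 1 (-0.14, adjusted p = 0.21) and without pair 3 (-0.19, adjusted p = 0.16), and without rapamycin replicate 1 the unpaired value was -0.08. CHD4 shares its position with an antisense gene (AC006064.2, 12927 reads over all libraries), and reads of the 2 strands cannot be told apart where strand was not counted.

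MBD2 (ENSG00000134046, chr18:54151601-54224788), the reader of methylated CpG in NuRD, was at 34.2, 26.4 and 31.9 CPM in DMSO replicates 1, 2 and 3 and at 29.0, 25.8 and 25.5 CPM in rapamycin replicates 1, 2 and 3. It was lower under rapamycin in 3 of 3 pairs, with overlapping groups (log2 fold change -0.21, SE 0.11, adjusted p = 0.32, with the block 0.16). Without DMSO replicate 1 the unpaired value was -0.12. Of 14 NuRD genes listed, CHD4 and MBD2 included, 0 passed the unpaired test in either direction, with a median log2 fold change of -0.068 against 0.02 over all genes tested and -0.065 over the 7604 abundant genes, and 3 were under an unadjusted p of 0.05. Of all genes 6.8% passed that test and 20.8% were under an unadjusted p of 0.05, and 15.2% of the 7604 abundant genes passed. With the block 4 of the 14 fell: CDK2AP1 (-0.28, adjusted p = 0.030), GATAD2A (-0.25, adjusted p = 0.0098), MTA2 (-0.22, adjusted p = 0.013) and CHD4. These are 4 of 14, where 9.62% of all genes fell and 31.1% of the 7604 abundant genes passed in either direction. All 4 calls were lost without pair 3 (CDK2AP1 -0.17, adjusted p = 0.31, GATAD2A -0.18, adjusted p = 0.18, and MTA2 -0.18, adjusted p = 0.17). GATAD2A links the reader to the remodelling module of NuRD and MTA2 belongs to its deacetylase module.

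NR2C2 (ENSG00000177463, chr3:14947584-15053600), the TR4 member of the direct-repeat repressor, was at 149, 151 and 141 CPM in HBG1-guide DMSO replicates 1, 2 and 3. Under rapamycin it was at 165, 168 and 163 CPM in replicates 1, 2 and 3. With the non-targeting guide it was at 149.5 CPM under DMSO and at 187.5 and 163 CPM under rapamycin. All 5 rapamycin libraries lay above all 4 DMSO libraries, as they did for 6.38% of all genes and 7.71% of the 7604 abundant genes. The log2 fold change was 0.17 (SE 0.07, adjusted p = 0.20), and with the replicate block 0.18 (SE 0.06, adjusted p = 0.041). That call was lost when any 1 pair was left out, with adjusted p from 0.061 to 0.24 and log2 fold changes from 0.15 to 0.18. NR2C2 overlaps FGD5-AS1 (31461 reads over all libraries) and MRPS25 (31599 reads) on the opposite strand, against its own 35362 reads, and their reads cannot be told apart where strand was not counted.

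NR2C1 (ENSG00000120798, chr12:95020229-95073703), the TR2 partner, was at 22.2, 22.4 and 22.9 CPM in HBG1-guide DMSO replicates 1, 2 and 3 and at 27.5, 23.9 and 24.4 CPM in rapamycin replicates 1, 2 and 3. With the non-targeting guide it was at 21.5 CPM under DMSO and at 26.7 and 29.0 CPM under rapamycin. As with NR2C2, every rapamycin library was above every DMSO library. The log2 fold change was 0.17 (SE 0.10, adjusted p = 0.39, with the block 0.25), and it was 0.10 without rapamycin replicate 1 and, under the block, 0.096 without pair 1. NR2C1 and NR2C2 were the 2 of 9 genes whose HBG1-guide groups did not overlap, where 25.3% of all genes and 38.8% of the 7604 abundant genes did not (12.2% and 11.4% higher). The ratio of NR2C2 to NR2C1 per kb was 3.61 ± 0.18 under DMSO and 3.63 ± 0.285 under rapamycin (SD, n = 3 each).

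DNMT1 (ENSG00000130816, chr19:10133345-10231286), which copies DNA methylation after replication, was at 276, 311 and 310 CPM in DMSO replicates 1, 2 and 3 and at 242, 296 and 266 CPM in rapamycin replicates 1, 2 and 3. The groups overlapped, and rapamycin was lower in 3 of 3 pairs (log2 fold change -0.16, SE 0.08, adjusted p = 0.29, with the block 0.072). Without rapamycin replicate 1 the unpaired value was -0.09, and without rapamycin replicate 2 it was -0.24. A call under the block appeared when pair 2 was left out (-0.20, adjusted p = 0.016). UHRF1, which guides DNMT1 to newly copied DNA, had a log2 fold change of -0.20 in the unpaired test (SE 0.08, adjusted p = 0.13), and with the block it fell (-0.20, adjusted p = 0.034). That call was lost without pair 1 (-0.18, adjusted p = 0.16) or pair 3 (-0.16, adjusted p = 0.23).

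Of 11 other genes for DNA methylation and histone marks linked to globin silencing, 2 fell in the unpaired test and none rose. That test called 4.05% of all genes lower, and 15.2% of the 7604 abundant genes in either direction. EED, a core subunit of Polycomb repressive complex PRC2, went from 40.4 ± 1.79 to 30.2 ± 1.28 CPM (SD, n = 3 each, log2 fold change -0.42, SE 0.09, adjusted p = 0.0099). PRMT5, an arginine methyltransferase, went from 203 ± 11.1 to 161 ± 11.5 CPM (SD, n = 3 each, log2 fold change -0.34, SE 0.08, adjusted p = 0.015). EED lost its call without DMSO replicate 2 (-0.38, adjusted p = 0.063), and PRMT5 lost its call without DMSO replicate 2 (-0.36, adjusted p = 0.0502) or rapamycin replicate 3 (-0.28, adjusted p = 0.090). With the block SUZ12, another PRC2 subunit, fell as well (-0.26, adjusted p = 0.013), a call lost without pair 1 (-0.19, adjusted p = 0.14). The median of the 11 was -0.089. In the 1 non-targeting pair the log2 ratios were -0.55 for EED, -0.40 for PRMT5 and -0.13 for SUZ12.

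ZBTB7A (ENSG00000178951, chr19:4044364-4066945) represses gamma-globin independently of BCL11A. It was at 67.9, 77.7 and 80.1 CPM in DMSO replicates 1, 2 and 3 and at 58.4, 80.0 and 62.7 CPM in rapamycin replicates 1, 2 and 3. Rapamycin replicate 2 lay within the DMSO range and the other 2 below it (log2 fold change -0.17, SE 0.11, adjusted p = 0.41, with the block 0.14). The unpaired value was -0.08 without rapamycin replicate 1 and -0.32 without rapamycin replicate 2, and the blocked one -0.08 without pair 3. Its call under the block appeared when pair 2, which moved the other way, was left out (-0.29, adjusted p = 0.0066).

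MYB (ENSG00000118513, chr6:135181315-135219173) was at 144, 152 and 170.5 CPM in DMSO replicates 1, 2 and 3 and at 133, 162.5 and 158 CPM in rapamycin replicates 1, 2 and 3. The ranges lay almost on top of each other, and the log2 fold change was -0.04 (SE 0.10, 95% interval -0.25 to 0.17, adjusted p = 0.88). MYB was the gene of the 9 nearest to no change. It overlaps MYB-AS1 (4438 reads over all libraries) on the opposite strand.

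Of 16 listed switch factors 14 were tested, since BCL11A and BCL11B had no reads. GATA1, the master erythroid transcription factor, rose from 198 ± 13.5 to 246 ± 24.2 CPM (SD, n = 3 each, log2 fold change 0.31, adjusted p = 0.033), and 13 of 14 did not pass, with a list median of -0.064. In this unpaired test 6.8% of all genes and 15.2% of the 7604 abundant genes passed. The GATA1 call was lost without DMSO replicate 2 (0.28, adjusted p = 0.15), DMSO replicate 3 (0.28, adjusted p = 0.13), rapamycin replicate 1 (0.23, adjusted p = 0.085), rapamycin replicate 3 (0.35, adjusted p = 0.057) or the non-targeting rapamycin replicate 2 (0.31, adjusted p = 0.0501). KLF1, an activator of BCL11A and adult globin, stood at 160 ± 18.3 and 166 ± 21.3 CPM (SD, n = 3 each, log2 fold change 0.05, adjusted p = 0.82).

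The haem-regulated kinase HRI, encoded by EIF2AK1, acts on translation through eIF2 and ATF4 and is known to sustain BCL11A in adult erythroid cells. EIF2AK1 stood at 262, 269.6 and 268.5 CPM in HBG1-guide DMSO replicates 1, 2 and 3 and at 323, 296 and 311.5 CPM in rapamycin replicates 1, 2 and 3. Its groups did not overlap, as was so for 25.3% of all genes and 38.8% of the 7604 abundant genes (12.2% and 11.4% higher). Its log2 fold change was 0.22 (adjusted p = 0.064). With the block EIF2AK1 rose (0.22, adjusted p = 0.010), a call lost without pair 1 (0.18, adjusted p = 0.12) or pair 3 (0.22, adjusted p = 0.086). Of 7 genes of this branch 4 fell and 1 rose in the unpaired test, which called 6.8% of all genes and 15.2% of the 7604 abundant genes. TRIB3 fell by 0.80 on the log2 scale (adjusted p = 0.000285), ASNS, asparagine synthetase, by 0.82 (adjusted p = 0.0018) ATF4 by 0.37 (adjusted p = 0.032) and EIF2S1, the alpha subunit of eIF2, by 0.28 (adjusted p = 0.039), while PPP1R15A, which reverses eIF2 phosphorylation, rose by 0.38 (adjusted p = 0.0067). The ATF4 call was lost when DMSO replicate 1, 2 or 3, rapamycin replicate 2 or 3, or either non-targeting rapamycin library was left out, with log2 fold changes from -0.41 to -0.28 and adjusted p from 0.054 to 0.13, with upper-quartile scaling (-0.33, adjusted p = 0.058) and with only the 6 HBG1-guide libraries (-0.37, adjusted p = 0.060). The EIF2S1 call, named after its values were seen, was lost without the same 7 libraries (-0.31 to -0.23, adjusted p from 0.061 to 0.14), with upper-quartile scaling (-0.24, adjusted p = 0.083) or with only the 6 HBG1-guide libraries (-0.27, adjusted p = 0.060). With the block 5 of the 7 fell and 2 rose, where 17.1% of all genes passed. The additions were EIF2AK1 and DDIT3, a stress transcription factor (-0.50, adjusted p = 0.0015), and both ATF4 (-0.38, adjusted p = 0.00033) and EIF2S1 (-0.27, adjusted p = 0.0033) kept their calls there with any 1 pair left out. The median of the 7 was -0.37. All 7 had the same signs in the 1 non-targeting pair as in the 3 HBG1-guide pairs. Of all genes 35.3%, and of the 7604 abundant genes 54.4%, had 1 sign in all 4 pairs. The log2 ratios in the non-targeting pair were -0.84 for ASNS, -0.82 for TRIB3, -0.47 for ATF4, -0.20 for EIF2S1, -0.96 for DDIT3, 0.385 for PPP1R15A and 0.32 for EIF2AK1.

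The genes of the LIN28 and let-7 axis were counted as a list of 11, of which 0 passed the unpaired test and 2 (LIN28B and IGF2BP1) were under an unadjusted p of 0.05. That test called 6.8% of all genes and 15.2% of the 7604 abundant genes, and 20.8% of all genes were under an unadjusted p of 0.05. LIN28A, the paralogue of LIN28B, stood at 2.17, 21.6 and 13.8 CPM in HBG1-guide DMSO replicates 1, 2 and 3 and at 1.45, 14.1 and 9.71 CPM in rapamycin replicates 1, 2 and 3. It was lower under rapamycin in 3 of 3 pairs by log2 ratios of -0.59, -0.62 and -0.50, while the level in replicate 1 was far below the others under each treatment. Its log2 fold change was -0.55 (SE 0.62, adjusted p = 0.67), and with the replicate block -0.56 (SE 0.15, adjusted p = 0.012), a call lost without pair 2 (-0.53, adjusted p = 0.13) or pair 3 (-0.61, adjusted p = 0.065). With the block LIN28A, LIN28B and IGF2BP1 fell and none of the 11 rose. In that fit 9.62% of all genes fell, and 31.1% of the 7604 abundant genes passed in either direction.

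HMGA2, a classic let-7 target with 4 sites of its own, was at 2.33, 7.89 and 10.1 CPM in DMSO replicates 1, 2 and 3 and at 2.32, 11.8 and 10.9 CPM in rapamycin replicates 1, 2 and 3, so that it too was low in replicate 1. Its log2 fold change was 0.34 (SE 0.51, adjusted p = 0.77). IGF2BP2 and IGF2BP3, paralogues of IGF2BP1, had log2 fold changes of -0.13 (adjusted p = 0.45) and -0.02 (adjusted p = 0.93). The ratio of IGF2BP1 to IGF2BP3 per kb was 2.58 ± 0.107 under DMSO and 2.22 ± 0.194 under rapamycin with the HBG1 guide (SD, n = 3 each), and 2.7 and 2.27 ± 0.108 (SD, n = 2) with the non-targeting guide.

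**Figure D3:**
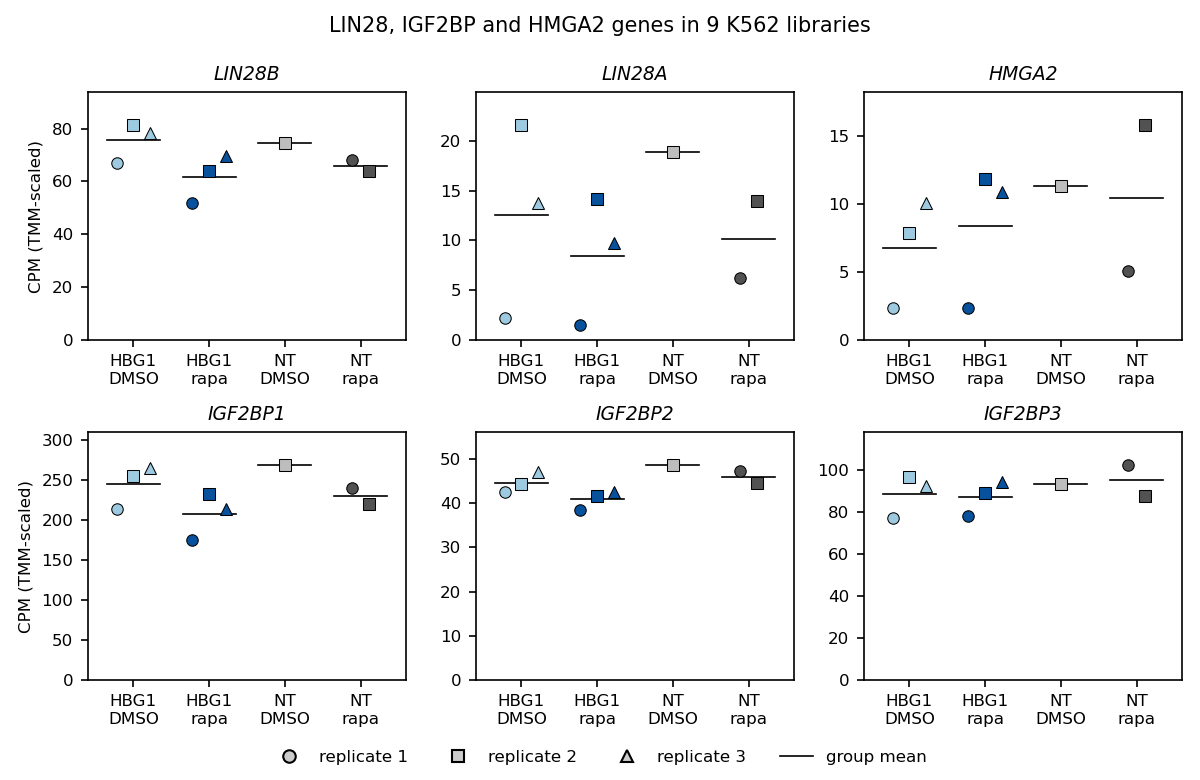
TMM-scaled CPM of LIN28B, LIN28A, HMGA2 and the 3 IGF2BP genes in the 9 libraries, by guide and treatment (rapa: rapamycin; NT: non-targeting guide), with 1 point per library, shape for the replicate number and a line at the group mean; each axis starts at 0. LIN28A (1.45 to 21.6 CPM) and HMGA2 (2.32 to 15.8 CPM) vary far more between replicates than LIN28B (51.7 to 81.5 CPM), and replicate 1 is low for all 3 with the HBG1 guide.

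With the HBG1 guide, the 4 genes with let-7 sites were also the 4 with the lowest rapamycin changes. This order was noticed after the values were seen and is given without a test. It did not hold with the non-targeting guide, where ZBTB7A (-0.24) and DNMT1 (-0.19), which have no site, lay below LIN28B (-0.17), MBD2 (-0.17) and CHD4 (-0.10). In the additive model over all 9 libraries, ZBTB7A (-0.19) and DNMT1 (-0.17) lay below CHD4 (-0.16). Over all genes at least as abundant as the least abundant of the 9, those with a site had a median log2 fold change of -0.064 (661 genes) and those without had -0.074 (6139 genes).

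The 9 genes had a median log2 fold change of -0.166 with rapamycin, against 0.02 over all 23675 genes and -0.065 over the 7604 genes at least as abundant as the least abundant of them. Their median absolute change was 0.168, against 0.233 and 0.144. Of the 9, 7 were lower, and 63.2% of the 7604 genes were lower too.

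Replicate 1 of the HBG1 guide stood apart in several of these genes. Rapamycin replicate 1 was the lowest of the 9 libraries for 6 of the 9 genes (21.8% of the 7604 genes had their lowest value there), and DMSO replicate 1 was the lowest of the 4 DMSO libraries for 6 of 9 (33.5% of those genes). In the same replicate the embryonic globin HBE1 reached 12320 CPM with DMSO and 14590 CPM with rapamycin, against 6597 to 7871 CPM in replicates 2 and 3 of the HBG1 guide. HBZ was at 2779 and 3564 CPM there, against 1868 to 2452 CPM. With the non-targeting guide, rapamycin replicate 1 was likewise above rapamycin replicate 2 in HBE1 (2979 against 2400 CPM) and HBZ (2586 against 2117 CPM). It was below that library in LIN28A (6.20 against 14.0 CPM) and HMGA2 (5.05 against 15.8 CPM). Of the 9 genes, 1 had its lowest value of the 9 libraries in non-targeting rapamycin replicate 1, as did 16.3% of the 7604 genes. Whether this state of replicate 1 bears on the levels of the 9 genes was not tested.

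The non-targeting guide shows rapamycin without recruitment to HBG1, but its DMSO arm is 1 library, whose spread the fit takes from the replicated groups. In that test, added after seeing the data, 0 of 9 genes passed (adjusted p from 0.28 to 0.88), against 0.891% of 23675 genes. NR2C1 alone of the 9 was under an unadjusted p of 0.05 (95% interval 0.05 to 0.70), where 14.1% of all genes were. The signs were those of the HBG1 guide for 9 of 9 genes, where 68.0% of all genes and 77.8% of the 7604 genes also shared their sign. The log2 fold changes were -0.17 for LIN28B, -0.23 for IGF2BP1, -0.10 for CHD4, -0.24 for ZBTB7A, 0.38 for NR2C1 and 0.23 for NR2C2. Taking the 3 pairs of the HBG1 guide with the 1 same-numbered non-targeting pair, DNMT1, MBD2, CHD4, IGF2BP1 and LIN28B were lower in 4 of 4 and NR2C1 and NR2C2 higher in 4 of 4. These 7 of 9 stand beside 35.3% of all genes and 54.4% of the 7604 abundant genes with 1 sign in all 4 pairs. An additive model of guide and drug over all 9 libraries called 1 of the 9, NR2C2 (0.19, adjusted p = 0.043), against 13.8% of all genes, and gave LIN28B and IGF2BP1 adjusted p-values of 0.054 and 0.056.

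**Figure D4:**
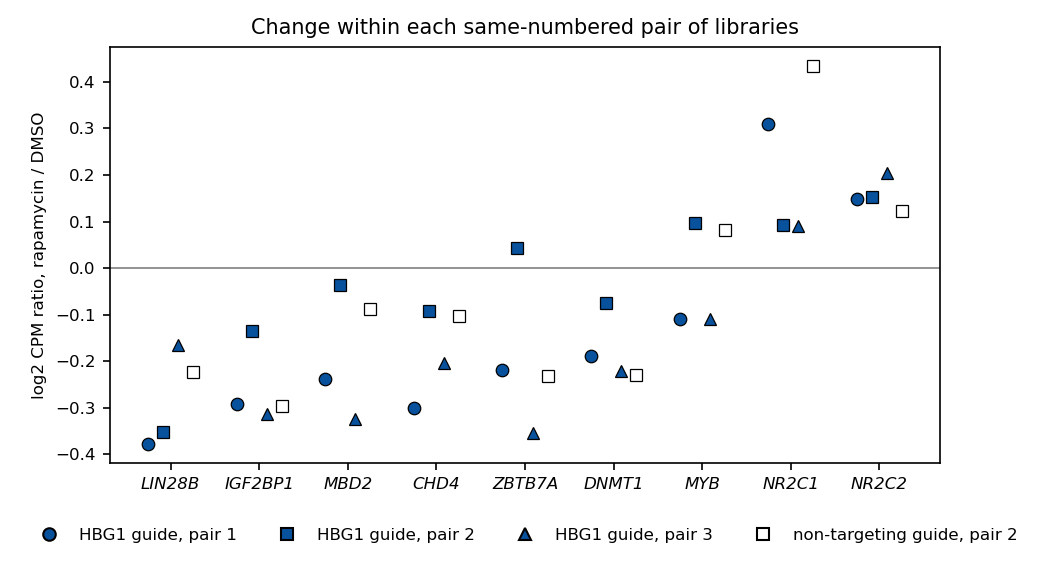
Log2 ratio of CPM, rapamycin over DMSO, within each same-numbered pair of libraries: 3 pairs with the HBG1 guide (filled) and 1 with the non-targeting guide (open). All 4 points lie below 0 for LIN28B, IGF2BP1, MBD2, CHD4 and DNMT1 and above 0 for NR2C1 and NR2C2, while ZBTB7A and MYB have points on either side.

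The difference between the rapamycin changes of the 2 guides was tested as an interaction. It lay between -0.21 (NR2C1, SE 0.18) and 0.07 (ZBTB7A, SE 0.19) on the log2 scale, and 0 of 9 genes passed, with adjusted p = 0.9999 for each, against 0.00422% of 23675 genes. The spread was again taken from the groups with replicates. None of the 9 was under an unadjusted p of 0.05, where 2.86% of all genes were, and DESeq2 called 0 of 9. The 95% intervals ran from -0.60 to 0.48 over the 9 genes, so differences of that size between guides were not detectable with 1 non-targeting DMSO library.

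HBG1 against the non-targeting guide under rapamycin asks whether the regulators differ where gamma-globin output does. The 9 genes lay between -0.17 (CHD4) and 0.11 (MBD2) on the log2 scale, and 0 of 9 passed in either direction (adjusted p from 0.81 to 0.98), against 0.0296% of 23675 genes. None was under an unadjusted p of 0.05, where 6.27% of all genes were, and DESeq2 called 0 of 9. The 95% intervals of the 9 genes ran from -0.39 to 0.38 and each included 0.

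CHD4 was the 1 gene of the 9 whose groups did not overlap between guides, where 22.6% of all genes and 27.9% of the 7604 abundant genes did not: 378, 502 and 473 CPM with the HBG1 guide against 509 and 506 CPM with the non-targeting guide, all under rapamycin (log2 fold change -0.17, SE 0.11, 95% interval -0.39 to 0.05, adjusted p = 0.81). IGF2BP1 followed at -0.15 (SE 0.11, adjusted p = 0.84) and NR2C1 at -0.14 (SE 0.11, adjusted p = 0.85). LIN28B was at -0.09 (SE 0.12), NR2C2 at -0.08 (SE 0.08), DNMT1 at -0.05 (SE 0.09), MYB at -0.03 (SE 0.11) and ZBTB7A at -0.02 (SE 0.12). With guide and drug in an additive model over 9 libraries, the guide differences ran from -0.14 (IGF2BP1) to 0.12 (MBD2), and 0 of 9 passed against 0.0549% of all genes. In the lists, HBE1 was the 1 gene that passed between guides under rapamycin (log2 fold change 1.89, adjusted p = 0.012), and it lost its call without the non-targeting rapamycin replicate 1 (2.05, adjusted p = 0.38) or replicate 2 (1.74, adjusted p = 0.45).

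**Figure D5:**
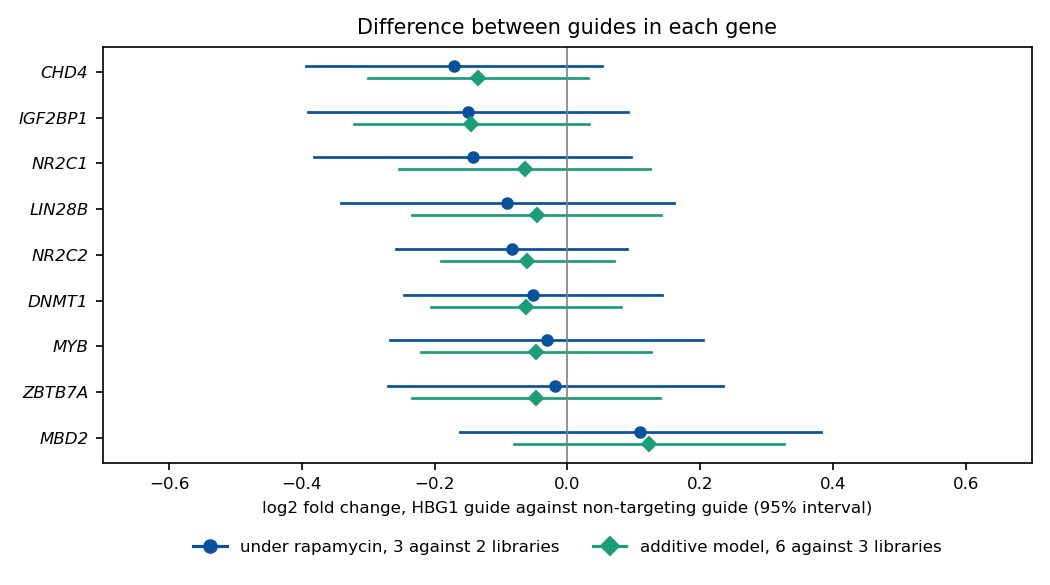
Log2 fold change of each gene between the HBG1 guide and the non-targeting guide, under rapamycin (3 against 2 libraries) and in an additive model over all libraries (6 against 3), with 95% intervals. Every interval under rapamycin includes 0, and the values run from -0.17 (CHD4) to 0.11 (MBD2).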

How the data were processed

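The authors deposited 1 table of read counts, with Ensembl genes as rows and the 9 libraries as columns, matched to groups and replicate numbers by the sample titles. Per the submitters' processing notes, STAR 2.7.3a, featureCounts (Subread 2.0.0), R 4.1.2, limma 3.34.9, edgeR 3.24.0 and GRCh38 (hg38) were named, and per the labels' protocols mRNA was captured on poly-T beads and libraries were made with a NEBNext Ultra kit. Strand setting, treatment of reads mapping to several places and annotation release are not given in the sources used here. Genes that overlap on opposite strands are therefore uncertain.

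Symbols, positions and 3′ regions came from GENCODE 29 (58039 of 58347 IDs matched). Counts were tested with edgeR 4.0.16 in R 4.3.3: filterByExpr by group at a minimum count of 10 (23675 genes kept), TMM scaling (factors 0.977 to 1.02), and one quasi-likelihood fit with a mean per group. Calls used a Benjamini-Hochberg adjusted p under 0.05 over all tested genes. The SE is the log2 fold change over the square root of F. Levels are TMM-scaled CPM. The script was tested on simulated data. Alternatives were DESeq2 1.42.0, other scaling and filters, leaving out each library, an additive model and a replicate block.

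Same-numbered HBG1-guide libraries deviated together over 11866 genes (r = 0.549, 0.275 and 0.230, limit 0.1), so the numbers were taken as pairs. Replicates 2 and 3 correlated almost as much when crossed (0.255 and 0.19), so only replicate 1 was set apart. Between guides, under rapamycin, r was -0.063 for replicates 1 and 2, and numbers were not taken to pair across guides. Each guide's 2 libraries were centred on their own mean, so the values for replicates 1 and 2 are equal by construction. They form a single check, which cannot exclude a pairing across guides. The labels do not say whether replicates were separate cultures, so p-values measure the spread between these samples, which may be technical.

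The 10 genes and all lists were chosen with earlier results of these data known. All 10 are named, with up to 4 called genes per list and test by size of change. Genes alike in pattern were to be named for genes called in the unpaired rapamycin test, and there were none. The same naming was applied to the blocked fit after its values were seen, and paralogues were named beside the gene they resemble. The count over 1 list is not reported here.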

Additional observations from a re-analysis of the deposited data

Results flagged for a closer look

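HBG2, the gamma-globin gene the regulators act on, changed differently with rapamycin under the 2 guides. Its level went from 430 ± 162 to 2726 ± 596 CPM with the HBG1 guide (SD, n = 3 each) and from 11230 CPM (n = 1) to 11970 ± 131 CPM (SD, n = 2) with the non-targeting guide. The interaction was 2.57 on the log2 scale (edgeR's quasi-likelihood test, adjusted p = 0.035). The call was lost with DESeq2 (2.58, adjusted p = 0.47), with scaling by library size only (2.58, adjusted p = 0.066), with a CPM minimum of 1 (2.58, adjusted p = 0.12) and when 1 of several libraries was left out: DMSO replicate 2 (2.61, adjusted p = 0.12), rapamycin replicate 2 (2.64, adjusted p = 0.096) or 3 (2.38, adjusted p = 0.16) of the HBG1 guide, and non-targeting rapamycin replicate 1 (2.56, adjusted p = 0.91) or 2 (2.59, adjusted p = 0.27). HBG1, its near-identical copy, had an interaction of 2.60 (adjusted p = 0.28), and passed in 6 of 16 alternatives: with a replicate block over all libraries (2.45, adjusted p = 4.969e-05) or within each guide (2.71, adjusted p = 1.67e-11), with no filter on low counts (2.60, adjusted p = 1.279e-96), and without DMSO replicate 1 (2.26, adjusted p = 0.00054) or 3 (3.00, adjusted p = 0.026) or rapamycin replicate 1 (2.74, adjusted p = 0.017) of the HBG1 guide. None of the 9 regulators with reads passed this test. No group has 4 or more libraries, so no library was tested against the rest of its group.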

How the results depend on the processing

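For rapamycin against DMSO with the HBG1 guide, 0 of 9 regulators were called in the unpaired fit and whichever library was left out. The count was 2 with no filter on low counts (LIN28B and IGF2BP1), 1 in the additive model (NR2C2) and 4 with the replicate block on the 6 libraries. Leaving out each pair under that replicate block, an alternative chosen after seeing the data, gave 1 to 5, so the range over all such leave-outs was 0 to 5. The direction of all 9 but MYB held in every alternative run. MYB was 0.0009 with upper-quartile scaling and ran from -0.11 to 0.045 with libraries or pairs left out, and LIN28A ran from -1.09 to 0.14, the last without DMSO replicate 2. Among other named genes, IGF2BP3 was 0.015 with upper-quartile scaling, and with libraries or pairs left out IGF2BP3 ran from -0.12 to 0.051, KLF1 from -0.058 to 0.15 and HMGA2 from -0.084 to 0.77. Over all genes, 1609 calls became 3441 with the replicate block, 3263 in the additive model and 664 to 3199 with libraries or pairs left out (664 without DMSO replicate 2, 749 without DMSO replicate 3 and 693 without rapamycin replicate 3).

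Between guides under rapamycin and for the interaction, 0 of 9 were called in every alternative run. Calls over all genes between guides were 7, and 91 with no filter, 13 with DESeq2, 11 with a replicate block on 4 libraries, 13 in the additive model and 3 to 8 with a library left out. Signs near 0 reversed with a library left out: ZBTB7A ran from -0.17 to 0.070, MYB from -0.19 to 0.15, NR2C2 from -0.18 to 0.023, DNMT1 from -0.13 to 0.017 and LIN28B from -0.19 to 0.022, and ZBTB7A was 0.0079 with the replicate block. For the interaction, 1 call over all genes became 0 by library size only, with a CPM minimum of 1 or with DESeq2, 8 with no filter, 3 with a replicate block over 9 libraries, 5 with a block within each guide, and 0 to 4 with a library left out. With a library left out, the interaction ran from -0.070 to 0.16 for ZBTB7A, -0.12 to 0.22 for MYB, -0.16 to 0.047 for NR2C2, -0.047 to 0.097 for DNMT1, -0.13 to 0.058 for MBD2, -0.18 to 0.019 for CHD4 and -0.10 to 0.096 for IGF2BP1. With the replicate block over 9 libraries it was -0.047 for ZBTB7A, -0.072 for MYB, -0.040 for DNMT1 and 0.030 for MBD2, and with the block within each guide -0.12 for MYB, 0.046 for NR2C2 and 0.049 for IGF2BP1. The cause of these shifts was not tested.

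With 1 to 3 libraries a group, the 95% intervals of the unpaired rapamycin changes ran from -0.51 to 0.38 over the 9 regulators. BCL11A could not be compared at any depth reached here, and the non-targeting DMSO arm has no replicate.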

Other observations

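DNMT3A, a de novo DNA methyltransferase, lay on the other side of 0 from DNMT1 with rapamycin. It stood at 6.68, 5.10 and 5.31 CPM in HBG1-guide DMSO replicates 1, 2 and 3 and at 7.90, 8.98 and 7.24 CPM in rapamycin replicates 1, 2 and 3, with 5.63 CPM in the non-targeting DMSO library and 7.54 and 8.23 CPM under rapamycin. All 5 rapamycin libraries lay above all 4 DMSO libraries, as they did for 6.38% of all genes. The log2 fold change was 0.49 (SE 0.17, edgeR adjusted p = 0.11), 0.51 with the replicate block (adjusted p = 0.051) and 0.49 in the additive model (adjusted p = 0.026). The ratio of DNMT1 to DNMT3A per kb was 65.7 ± 13.1 under DMSO and 41.0 ± 3.76 under rapamycin with the HBG1 guide (SD, n = 3 each), and 68.9 and 43.3 ± 4.45 (SD, n = 2) with the non-targeting guide. DNMT3A was singled out after its values were seen.

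GATAD2A and GATAD2B, alternative subunits of NuRD, also lay on either side of 0. The ratio of GATAD2A to GATAD2B per kb was 7.24 ± 0.702 under DMSO and 5.43 ± 0.553 under rapamycin with the HBG1 guide (SD, n = 3 each), and 7.51 and 4.82 ± 0.407 (SD, n = 2) with the non-targeting guide. This ratio, too, was chosen after the values were seen and has no test.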
